A study of Mus musculus with 8 samples.

Results

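The genes described here encode the enzymes that copy DNA at the replication fork: the sliding clamp Pcna, the primase subunits Prim1 and Prim2, the catalytic polymerase subunits Pola1, Pold1 and Pole, the clamp loader subunits Rfc3, Rfc4 and Rfc5, and the flap endonuclease Fen1. All probe sets whose single gene symbol in the platform annotation was 1 of these 10 genes were taken, which gave 16 probe sets of the 20393 with 1 symbol, or 10 of 12394 genes. RNA of whole skin was hybridized to 8 oligonucleotide arrays, and the mice were newborns of the inbred strain FVB. The titles give 4 genotypes of 2 arrays each. These are pRb-/-;p53+/+ (called pRb_null), pRb+/+;p53-/- (p53_null), pRb-/-;p53-/- (double_null) and a group titled only as control. Both genes were inactivated somatically in stratified epithelia, so other cells of the skin keep them, and the sources used here do not name what drove the deletion. Each array held a pool of RNA from 3 animals of 1 genotype, and the labels do not state if the pools of a genotype were distinct, so the p-values rest on a spread between arrays that may be only technical.

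At the fork, primase and polymerase alpha lay down short RNA-DNA primers. The clamp loader then opens the Pcna ring and closes it around the primed DNA, where it tethers polymerase delta, which makes most of the lagging strand, while polymerase epsilon makes most of the leading strand. Fen1 cuts the displaced primer flap before ligation. Many of these genes are transcribed as cells enter S phase under E2F factors, which pRb restrains. In newborn skin the dividing cells that use this machinery lie mainly in the basal epidermis and the hair follicles. In whole skin, fewer cells of a type and less RNA per cell cannot be told apart.

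The promoter sequences are shown because E2F factors bind near the start of many of these genes. Promoter windows of 300 bases, 250 before and 50 after the RefSeq start on build GRCm38.p6, were found for 8 members: Pcna, Prim1, Pola1, Pold1, Rfc3, Rfc4, Rfc5 and Fen1, the last with 2 windows. Prim2 and Pole had no entry. Both strands were searched for E2F-type letters. The first motif was TTCCCGC. The second motif was TTCGCGC. A further motif searched in the same way was TTGCCGC. The last of the E2F-type motifs was TTGGCGC. Of the 9 member windows, 6 held at least 1 match, against 9.57% of all 32851 windows of the same length, which were not matched to the members for base composition. The 250 bases before the start of 4 members are given 5′ to 3′ on the gene's strand, with E2F-type matches on either strand in capitals. They are Pcna, Prim1 and Rfc3, which were lowest in control by at least 1 probe set, and Pola1, which held the most matches. The intervals are chr2:132253181-132253430 (minus strand) for Pcna, chr10:128014965-128015214 (plus strand) for Prim1, chr5:151651209-151651458 (minus strand) for Rfc3 and chrX:93632156-93632405 (minus strand) for Pola1.
Pcna: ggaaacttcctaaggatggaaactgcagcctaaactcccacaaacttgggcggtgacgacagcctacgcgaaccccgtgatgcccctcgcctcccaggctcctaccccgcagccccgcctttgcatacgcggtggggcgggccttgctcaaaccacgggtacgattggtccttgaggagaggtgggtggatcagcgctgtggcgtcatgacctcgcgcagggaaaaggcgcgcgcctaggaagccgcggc
Prim1: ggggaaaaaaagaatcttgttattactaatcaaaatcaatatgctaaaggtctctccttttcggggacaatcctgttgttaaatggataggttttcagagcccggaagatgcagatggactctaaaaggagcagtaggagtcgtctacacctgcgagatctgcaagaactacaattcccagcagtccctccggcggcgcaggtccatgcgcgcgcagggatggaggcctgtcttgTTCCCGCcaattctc
Rfc3: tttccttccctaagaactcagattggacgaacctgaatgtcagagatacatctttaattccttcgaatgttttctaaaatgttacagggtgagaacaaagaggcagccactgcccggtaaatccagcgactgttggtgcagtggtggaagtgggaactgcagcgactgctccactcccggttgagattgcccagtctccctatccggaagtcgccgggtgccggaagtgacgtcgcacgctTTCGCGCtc
Pola1: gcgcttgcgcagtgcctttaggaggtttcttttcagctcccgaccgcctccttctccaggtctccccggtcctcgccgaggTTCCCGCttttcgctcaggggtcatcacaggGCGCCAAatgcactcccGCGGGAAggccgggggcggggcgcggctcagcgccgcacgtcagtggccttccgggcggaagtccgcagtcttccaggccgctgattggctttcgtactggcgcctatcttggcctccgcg

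The Pcna window held 0 E2F-type matches and a CCAAT match on the opposite strand 87 to 83 bases before the start. In Prim1 the match TTCCCGC lay 15 to 9 bases before the start and shared its last base with a CCAAT match. In Rfc3 TTCGCGC lay 9 to 3 bases before the start, and a match to TTCCCGC on the opposite strand covered bases 1 to 7 after it. Pola1 had 3 matches before the start and 1 after it, the only window with more than 2. Pold1 and Rfc4 had 1 match each, both after the start, Fen1 had 1 in the first of its windows, and Rfc5 had 0. CCAAT was found in 4 of the 9 member windows, against 37.4% of all windows, and TTTGAA, the letters of a cell cycle element, in 1 of 9, against 17.9%.

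**Figure D1:**
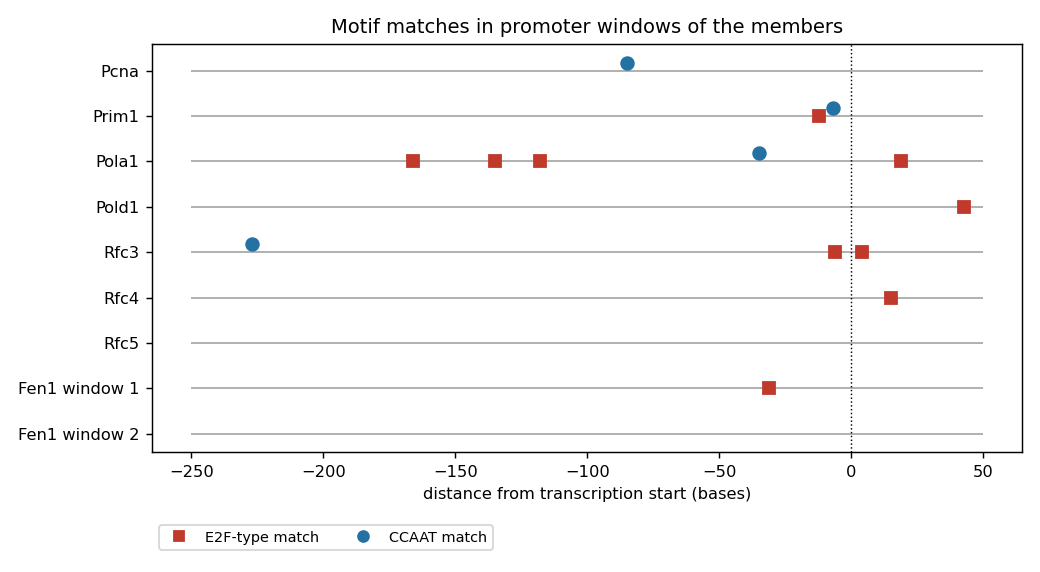
Positions of E2F-type matches (red squares) and CCAAT matches (blue circles, drawn slightly above the line) on either strand in the promoter windows, by distance from the transcription start in bases. Each line is a window of 300 bases. Pola1 has 4 E2F-type matches, Rfc3 has 2 next to the start, and the Pcna and Rfc5 windows have 0.

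The deposited values are scores standardized within each probe set, so that its 8 values average 0 and have an SD of 1. A score of 1 therefore lies 1 SD of that probe set above its own mean. The scores carry no expression level, so fold changes, a comparison of levels between genes, and a check of the tissue against absent markers cannot be given. Differences between groups were fitted with limma on all 8 arrays and 22690 probe sets, without variance moderation, and adjusted by Benjamini-Hochberg over all probe sets. A probe set was called at an adjusted p under 0.05. None of the 16 member probe sets was called in any of the 7 comparisons. The lowest adjusted p among them was 0.104, for Pcna in double_null against control. With 2 arrays a genotype, an adjusted p above the threshold does not show that a member did not differ. Probe sets are therefore described as higher or lower only by their scores, and counts at an unadjusted p under 0.05 are given beside the share of all probe sets that reached it. Across all probe sets, arrays of the same genotype correlated with r from 0.118 to 0.337, and the highest r between genotypes was 0.0935. The single Rb1 probe set scored −0.71 and 0.44 in pRb_null, −0.55 and −1.90 in double_null, 0.50 and 0.22 in p53_null and 1.20 and 0.80 in control. Where its probes lie with respect to the deletion is not known here, so it does not check the labels.

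The sliding clamp was lowest in control, and so was the catalytic primase subunit by 1 of its probe sets. Pcna (1417947_at), the ring that holds the polymerases on DNA, scored 0.86 and 0.11 in pRb_null, 0.30 and −0.45 in p53_null, 0.80 and 1.17 in double_null and −1.30 and −1.50 in control. Both control arrays lay below all 6 mutant arrays. Pcna differed from control by 1.89 ± 0.40 (SE) in pRb_null, 1.33 ± 0.40 in p53_null and 2.39 ± 0.40 in double_null. The limma unadjusted p was 0.0094, 0.030 and 0.0040, and the adjusted p 0.300, 0.293 and 0.104, in the same order. Among the mutants, double_null lay above p53_null without overlap, while pRb_null overlapped both.

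Prim1, which synthesises the RNA primer, had a pair of probe sets. The first (1418369_at) scored 1.26 and 0.80 in pRb_null, −0.22 and −0.26 in p53_null, 1.12 and −0.15 in double_null and −1.50 and −1.05 in control. Here too both control arrays were the lowest, and all 4 arrays without pRb lay above all 4 arrays with it. The second (1449061_a_at) scored −0.63 and 1.53 in pRb_null, −1.14 and −0.29 in p53_null, 0.94 and 0.95 in double_null and −0.37 and −0.99 in control. It separated double_null from control, while pRb_null and p53_null overlapped control. The first probe set differed from control by 2.31 ± 0.50 in pRb_null (limma adjusted p = 0.305) and by 1.77 ± 0.50 in double_null (adjusted p = 0.197), and the value in double_null was 1.13 without double_null replicate 1. The r between the Prim1 probe sets over the 8 arrays was 0.467.

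Prim2, the large primase subunit, showed no ordering by genotype that its probe sets shared. Probe set 1418035_a_at scored 0.16 and −0.67 in pRb_null, 0.59 and 0.53 in p53_null, 1.13 and −2.05 in double_null and 0.57 and −0.26 in control. Probe set 1418036_at scored −0.85 and 1.49 in pRb_null, −0.47 and 0.30 in p53_null, −0.40 and −0.21 in double_null and −1.26 and 1.40 in control. Each had at least 1 genotype whose arrays spanned most of its range, and the r between them was −0.338. Pola1 (1419397_at), the catalytic subunit of the primer-extending polymerase alpha, scored −0.90 and −0.54 in pRb_null, 0.78 and 0.23 in p53_null, 1.77 and −0.69 in double_null and −1.16 and 0.51 in control. Its mutant groups each overlapped control.

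The catalytic subunit of the leading strand polymerase was highest in pRb_null, and so was that of the lagging strand polymerase by 1 of its probe sets. Pole (1448650_a_at), the catalytic subunit of polymerase epsilon, scored 1.68 and 0.94 in pRb_null, −1.39 and −0.61 in p53_null, −0.63 and −0.58 in double_null and 0.50 and 0.09 in control. The pRb_null arrays were above all others, control came next, and p53_null and double_null overlapped each other below control. The p53_null arrays differed from control by −1.29 ± 0.41 (limma unadjusted p = 0.035, adjusted p = 0.305).

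Pold1, the catalytic subunit of polymerase delta, had a similar order by 1 of its probe sets. Probe set 1448187_at scored 1.22 and 1.03 in pRb_null, −0.50 and −0.06 in p53_null, −2.03 and 0.00 in double_null and 0.27 and 0.07 in control. Both pRb_null arrays were the highest, and 1 double_null array stood far below the rest. Probe set 1456055_x_at, of a kind that may cross-hybridize, scored 1.68 and −0.40 in pRb_null, −1.08 and 0.41 in p53_null, −0.92 and −0.40 in double_null and −0.48 and 1.20 in control and its groups overlapped in all 5 pairs compared. The r was 0.739 between Pole and Pold1 1448187_at and 0.569 between the Pold1 probe sets.

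Of the clamp loader, Rfc3 was the member with the best agreement between its probe sets, with an r of 0.740. Probe set 1423700_at scored 0.49 and 0.42 in pRb_null, 1.19 and 0.90 in p53_null, −0.34 and 0.10 in double_null and −0.91 and −1.85 in control. Probe set 1432538_a_at scored −0.07 and −0.19 in pRb_null, 0.80 and 0.95 in p53_null, 0.20 and 1.08 in double_null and −1.80 and −0.98 in control. In both, the control arrays were below all mutant arrays and p53_null had the highest mean. The probe sets differed in how they placed pRb_null and double_null: the first put pRb_null above double_null and the second put it below, each without overlap.

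By the first Rfc3 probe set the difference from control was 1.83 ± 0.38 in pRb_null, 2.42 ± 0.38 in p53_null and 1.26 ± 0.38 in double_null, with limma adjusted p of 0.294, 0.141 and 0.214. The value in double_null was 0.79 without control replicate 2. By the second it was 1.26 ± 0.43 in pRb_null, 2.27 ± 0.43 in p53_null and 2.03 ± 0.43 in double_null, with adjusted p of 0.454, 0.173 and 0.139.

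The probe sets of Rfc4, another small loader subunit, did not show the same order. Probe set 1424321_at scored −0.34 and 0.83 in pRb_null, 1.45 and 0.78 in p53_null, −0.86 and −0.42 in double_null and −1.60 and 0.17 in control. Probe set 1438161_s_at, of a kind whose probes can match transcripts of several genes, scored 0.66 and 0.21 in pRb_null, 0.20 and 0.12 in p53_null, −1.06 and −1.88 in double_null and 0.51 and 1.24 in control. By the second, both double_null arrays were below the other 6, by −2.35 ± 0.42 from control (limma unadjusted p = 0.0052, adjusted p = 0.115). By the first, double_null lay within the range of control, and the r between them was 0.204. Rfc5 (1452917_at), a further loader subunit, scored −0.36 and 1.50 in pRb_null, 0.42 and 0.13 in p53_null, 0.40 and −0.38 in double_null and −2.00 and 0.29 in control. Every Rfc5 group overlapped control.

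Fen1 was measured by a pair of probe sets with an r of −0.282. Probe set 1421731_a_at scored 0.23 and 1.88 in pRb_null, −1.01 and −1.22 in p53_null, 0.63 and −0.48 in double_null and −0.37 and 0.35 in control, so that p53_null was below the other 6 arrays. Probe set 1436454_x_at, of a kind that may cross-hybridize, scored 0.26 and −0.73 in pRb_null, −0.41 and −0.04 in p53_null, 0.27 and 2.17 in double_null and −0.39 and −1.14 in control. By this probe set double_null was above the other 6, although the lower double_null array nearly equalled a pRb_null array. The order of genotypes for Fen1 thus depends on the probe set. Counted over all members, both pRb_null arrays were the highest for 2 probe sets (7.66% of all probe sets) and the lowest for 0 (5.46%). Both p53_null arrays were the highest for 1 (6.01%) and the lowest for 1 (7.78%), both double_null arrays the highest for 1 (7.84%) and the lowest for 1 (10.1%), and both control arrays the highest for 0 (5.7%) and the lowest for 4 (7.01%). The count of 4 for control is the one farthest from its share in the table.

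**Figure D2:**
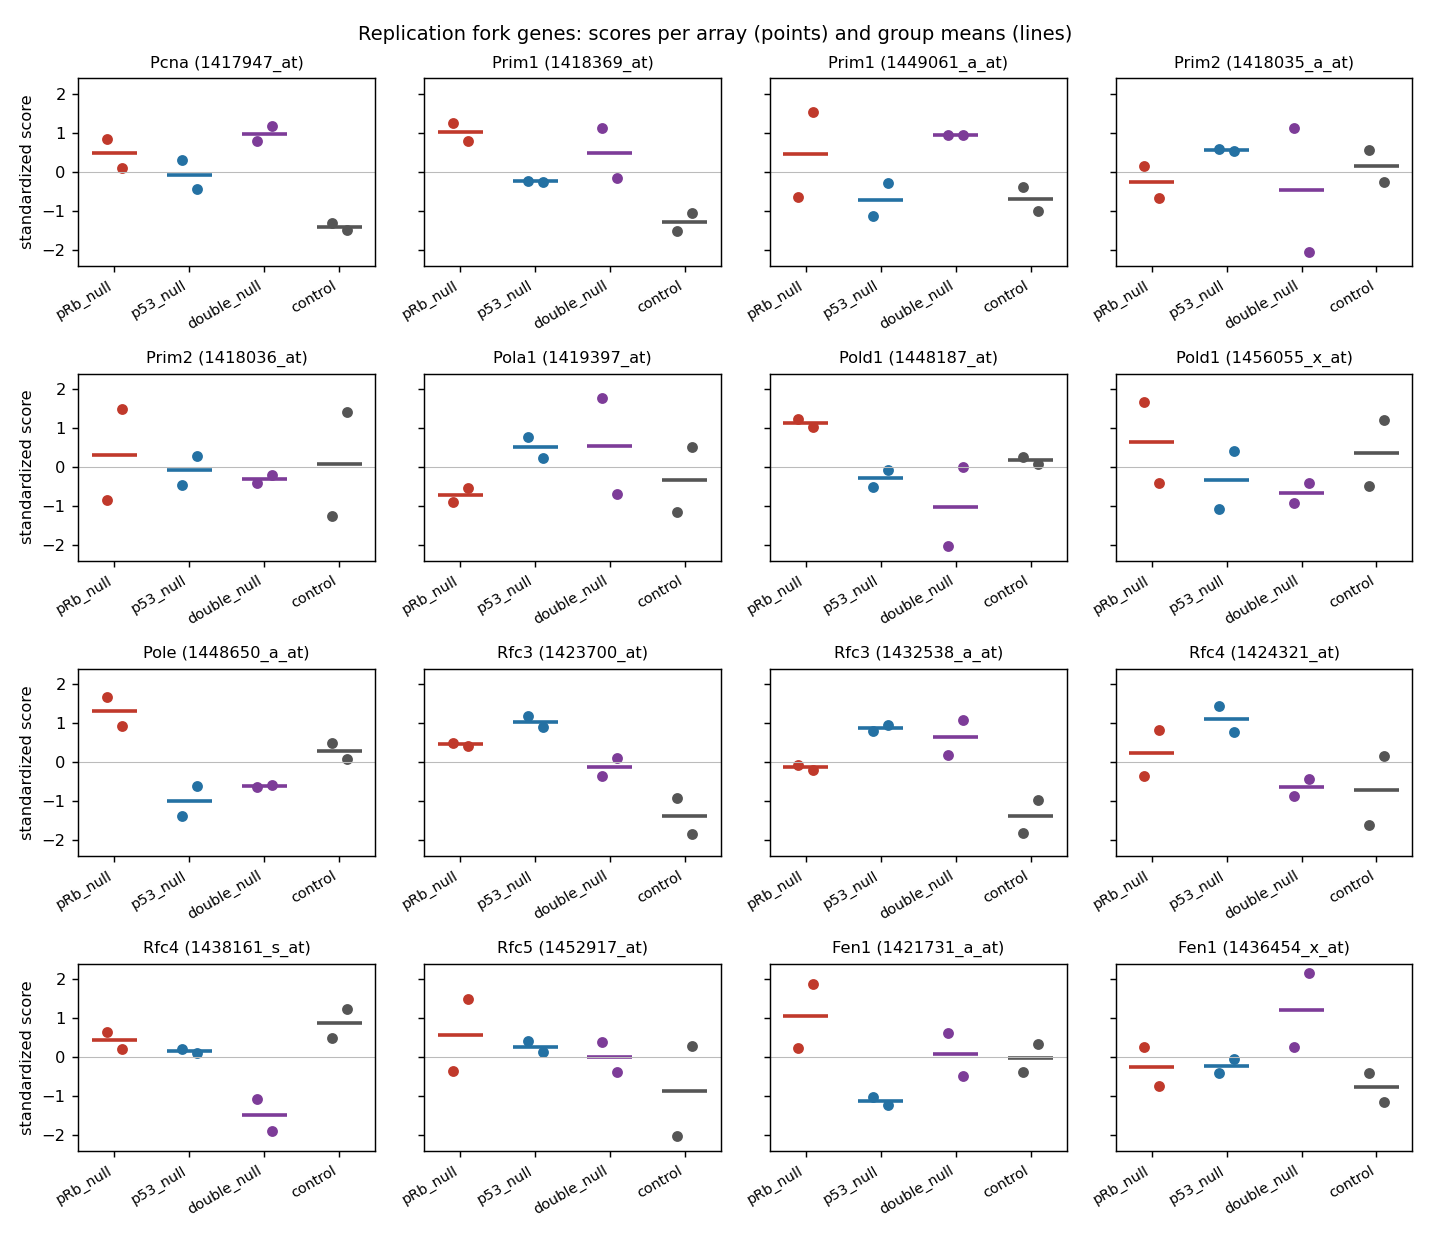
Standardized score (y axis) of each member probe set in every array, by genotype. Points are the 2 arrays of a genotype and lines their mean. Control is lowest for Pcna, Prim1 1418369_at and both Rfc3 probe sets, and pRb_null is highest for Pole and Pold1 1448187_at.

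In pRb_null against control most members had positive differences, although none passed the adjusted test. The difference was positive for 13 of 16 member probe sets, with a median of 0.99, against 52.3% and a median of 0.07 over all probe sets. At an unadjusted p under 0.05, 4 were higher (Pcna, Prim1 1418369_at and both of Rfc3) and 0 lower, against 6.44% and 4.21% of all probe sets, and 0 of all probe sets (0%) passed the adjusted test, while 10.6% (2416 probe sets) had an unadjusted p under 0.05 by the ordinary limma statistic and 2478 by the moderated one. The groups did not overlap for 6 members, all higher in pRb_null, against 22.7% of all probe sets higher and 18.4% lower. The count of 4 was 2 without control replicate 1.

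In p53_null against control, 9 of 16 differences were positive, with a median of 0.47, against 45.7% and −0.15 over all probe sets. Higher at an unadjusted p under 0.05 were Pcna and both Rfc3 probe sets, and lower was Pole, against 7.38% higher and 7.23% lower over all probe sets (14.6% in either direction). The adjusted test passed 0 members and 0.119% of all probe sets. Groups without overlap were found for 5 members higher and 4 lower, against 23.8% and 28.9%, so these counts were close to those of the table. The unadjusted count of 4 was 2 without control replicate 1 and without p53_null replicate 1, and the median was 0.13 without control replicate 1.

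In double_null against control the members split. The difference was positive for 10 of 16, with a median of 0.48, against 49.9% and −0.01 over all probe sets. Pcna, Prim1 1418369_at and both Rfc3 probe sets were higher at an unadjusted p under 0.05 and Rfc4 1438161_s_at lower, against 8.77% higher and 9.91% lower over all probe sets (18.7% in either direction). The adjusted test passed 0 members and 0.846% of all probe sets. Without overlap, 6 were higher and 3 lower, against 25.1% and 26.1%. The direction of the median depended on single arrays: it was −0.24 without control replicate 1, 0.95 without control replicate 2, 0.06 without double_null replicate 1 and 1.00 without double_null replicate 2. The unadjusted count of 5 was 3 without control replicate 2 and without either p53_null array.

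**Figure D3:**
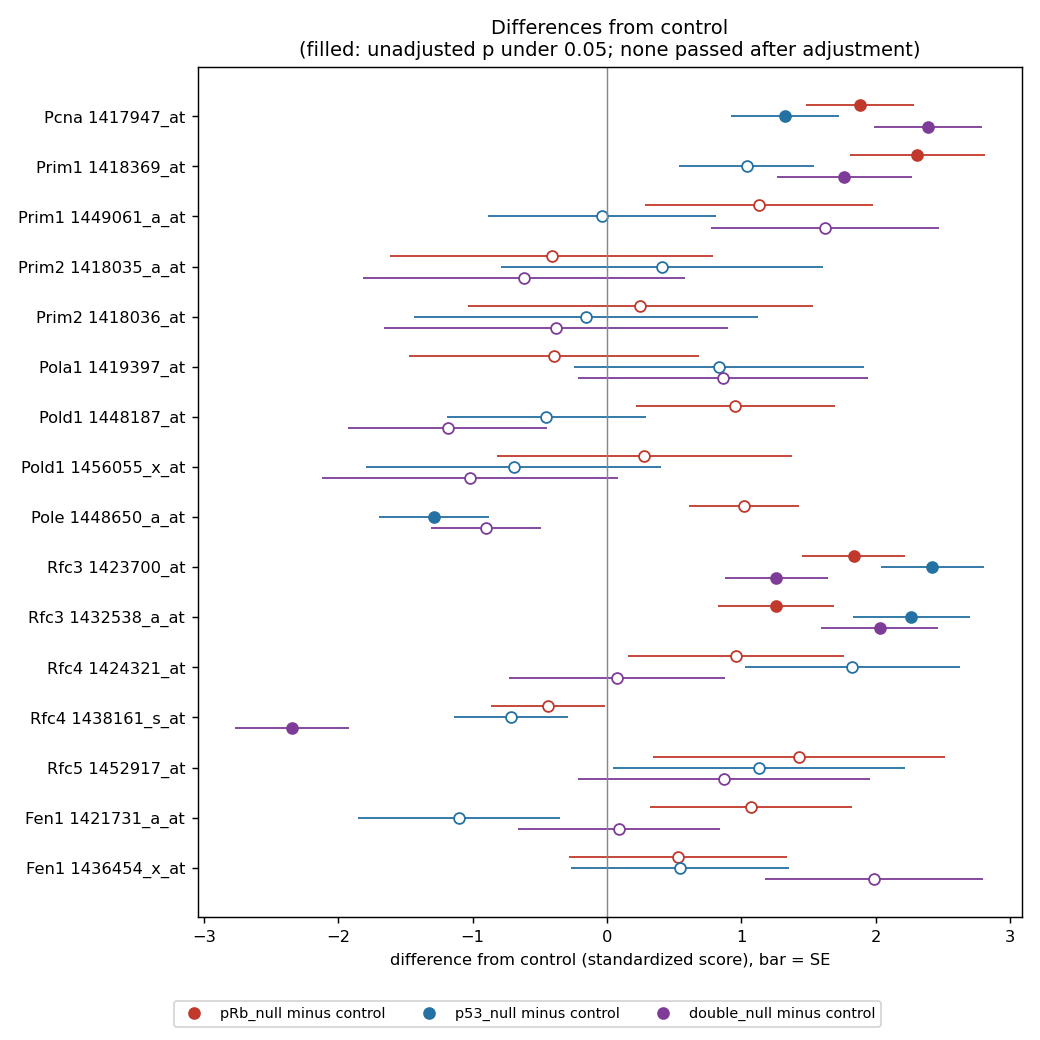
Difference of each genotype from control in standardized score (x axis) with its SE, for the 16 member probe sets. Filled points have an unadjusted p under 0.05. Pcna and both Rfc3 probe sets have filled points to the right of 0 for all 3 genotypes, and the 3 sets of differences share the same control arrays.

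The 3 sets of differences share the control arrays, and those arrays were also low for probe sets that are no part of the fork. Of the 64 array control probe sets, which detect bacterial and phage transcripts and some mouse genes, 20 had both control arrays below all 6 mutant arrays. These were 10 of the 19 for mouse genes and 10 of the 45 others. Over all probe sets the share was 7.01%, and among the members it was 4 of 16. The median score of the array control probe sets was 0.40 and 0.13 in pRb_null, −0.09 and 0.45 in p53_null, 0.12 and 0.31 in double_null and −0.69 and −0.51 in control. The median of the 16 member probe sets was 0.24 and 0.61 in pRb_null, −0.01 and 0.12 in p53_null, 0.24 and −0.30 in double_null and −0.70 and 0.08 in control. By that median only control replicate 1 lay below all mutant arrays. Each array's median over the 64 array control probe sets was then set to 0, a scaling added once the data had been seen. The median member difference from control was 0.12 in pRb_null, −0.30 in p53_null and −0.34 in double_null. This scaling moved the median over all probe sets as well, to −0.80 in pRb_null, −0.93 in p53_null and −0.82 in double_null against control. Because it takes the same amount from every probe set of an array, it cannot change the members relative to that median. Their median was 0.92, 0.63 and 0.48 above it with or without the scaling, which is therefore no check of that distance. Pcna then differed from control by 1.02 in pRb_null, 0.55 in p53_null and 1.57 in double_null, and only the last kept an unadjusted p under 0.05 (limma unadjusted p = 0.036, adjusted p = 0.203). In pRb_null 0 members were then higher at that bound and 1, Rfc4 1438161_s_at, was lower (−1.31), against 1.13% and 12.7% of all probe sets. In p53_null 2 were higher and 2 lower, against 1.82% and 17.7%, and in double_null 2 were higher and 3 lower, against 2.34% and 19.1%. Under this scaling more of all probe sets were lower than higher in each of these comparisons, so the lower members are not particular to the fork. The p53_null differences of the Rfc3 probe sets were 1.64 and 1.49 under this scaling, with limma unadjusted p of 0.031 and 0.015.

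**Figure D4:**
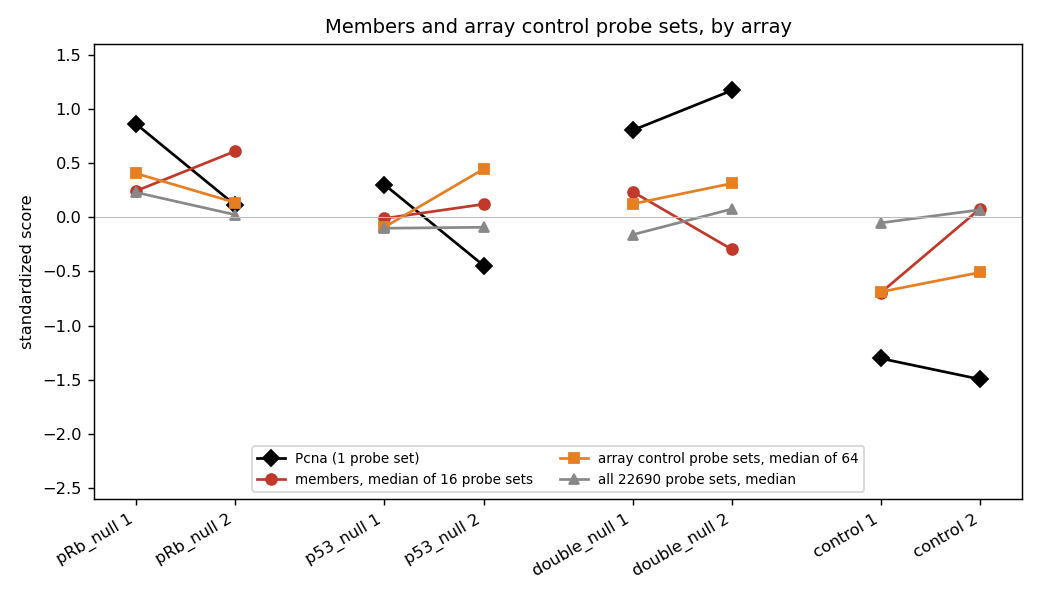
Standardized score (y axis) by array (x axis) of Pcna, and the median score of the 16 member probe sets, the 64 array control probe sets and all probe sets. Pcna and the array control probe sets are both lowest in the control arrays, at −1.30 and −1.50 for Pcna and −0.69 and −0.51 for the array control median. The member median is −0.70 and 0.08 there.

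Markers of other tissues differed in the same comparisons, and their part in the member differences was not tested. Which of them are absent cannot be read from scores. Skeletal muscle markers had median scores of 1.24 and 1.29 in pRb_null, against −0.79 and 0.08 in control, and 7 of 15 probe sets were higher and 1 lower by an unadjusted p under 0.05. In p53_null 4 of the 15 were higher and 4 lower, and in double_null 3 and 2. Adipocyte markers had medians of 0.73 and 0.53 in pRb_null, −1.38 and −1.44 in p53_null, 1.00 and 0.64 in double_null and −0.29 and 0.01 in control. Of 11 probe sets, 4 were higher in pRb_null, 7 lower in p53_null and 6 higher in double_null. Mast cell markers had medians of 1.22 and 1.30 in p53_null and 0.43 and 0.25 in double_null, against −0.75 and −0.65 in control, with 8 and 6 of 11 higher, while in pRb_null 0 were higher and 1 lower. Hair follicle markers, of a structure that holds many dividing cells, had medians of 0.68 and 0.59 in pRb_null, −0.24 and −0.22 in p53_null, −1.51 and −1.14 in double_null and 0.93 and 1.01 in control. Lower than in control were 5 of 16 in pRb_null, 13 in p53_null and 15 in double_null, 9 of the last called after adjustment, while 2, 1 and 0 were higher. Basal keratinocyte markers, of the dividing layer of the epidermis, had medians of 0.59 and 0.35 in pRb_null, −0.28 and 0.32 in p53_null, −0.26 and −0.24 in double_null and −0.48 and 0.53 in control. In pRb_null 4 of 17 were higher and 0 lower (23.5% and 0% of the list), against 6.44% and 4.21% of all probe sets. The 4 were Trp63 1451876_a_at and 1452027_a_at, Dst 1450119_at and Itga6 1422444_at. Of the basal marker differences in pRb_null 52.9% were positive, with a median of 0.02, against 81.2% and 0.99 for the members. In p53_null 3 basal marker probe sets were higher and 2 lower, and in double_null 2 and 3. The higher were both of these Trp63 probe sets in each genotype, and Itga6 1422444_at in p53_null. The lower included Krt5 1424096_at (−1.76 in p53_null and −2.26 in double_null) and Krt15 1422667_at (−2.22 in double_null).

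Loss of p53 in skin that already lacked pRb was read from double_null against pRb_null. Of the members, 5 of 16 differences were positive, with a median of −0.57, against 46.5% and −0.15 over all probe sets. At an unadjusted p under 0.05, 0 were higher and 3 lower, against 7.71% and 10.9% of all probe sets (18.6% in either direction), and 0 passed the adjusted test, against 0.405%. The 3 were Pole (−1.92 ± 0.41, limma adjusted p = 0.153), Pold1 1448187_at (−2.14 ± 0.74, adjusted p = 0.259) and Rfc4 1438161_s_at (−1.91 ± 0.42, adjusted p = 0.160). Without overlap, 2 were higher and 5 lower, against 22.1% and 28.1%. The Pold1 difference was −1.12 without double_null replicate 1. The count was 1 without pRb_null replicate 1 and 5 without double_null replicate 1, and the median was −0.29 without double_null replicate 2 and −0.23 without pRb_null replicate 2.

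Loss of pRb in skin that already lacked p53, double_null against p53_null, gave 7 of 16 positive differences and a median of −0.23, against 51% and 0.03 over all probe sets. Rfc3 1423700_at (−1.16 ± 0.38, limma adjusted p = 0.394) and Rfc4 1438161_s_at (−1.63 ± 0.42, adjusted p = 0.324) were lower at an unadjusted p under 0.05 and 0 were higher, against 5.91% and 5.99% of all probe sets (11.9% in either direction), with 0 and 0.0353% past the adjusted test. Pcna and both Prim1 probe sets were higher in double_null without overlap, and so were both of Fen1, 5 in all, against 24.3%, while 3 were lower, against 25.2%. The median was −0.002 without p53_null replicate 2, 0.01 without double_null replicate 1 and 0.25 without double_null replicate 2, and the count of 2 was 1 and 0 without p53_null replicates 1 and 2.

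Averaged over both p53 states, loss of pRb gave 11 of 16 positive differences and a median of 0.42, against 54.2% and 0.10 over all probe sets. Pcna (1.47 ± 0.28, limma adjusted p = 0.221) and Prim1 1418369_at (1.52 ± 0.36, adjusted p = 0.268) were higher at an unadjusted p under 0.05 and Rfc4 1438161_s_at lower (−1.03 ± 0.30, adjusted p = 0.325), against 6.92% and 5.94% of all probe sets (12.9% in either direction), with 0 and 0.00441% past the adjusted test. Prim1 1418369_at was the 1 member whose 4 arrays without pRb all lay above the 4 with it, against 2.86% of all probe sets, and 0 members had them all below, against 2.41%. The count of 3 was 6 without double_null replicate 1 and 5 without pRb_null replicate 1, and the median was 0.23 and 0.64 without control replicates 1 and 2.

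The interaction asked whether the effect of pRb loss differed with p53 absent, as the pRb difference in p53-lacking skin minus that in p53-bearing skin. It was negative for 12 of 16 member probe sets, with a median of −0.73, against −0.04 over all probe sets. Rfc3 1423700_at alone had an unadjusted p under 0.05 (−3.00 ± 0.54, limma adjusted p = 0.308), against 6.01% of all probe sets lower and 4.46% higher (10.5% in either direction, 2377 by the ordinary and 2251 by the moderated limma statistic), and 0 of all probe sets (0%) passed the adjusted test. The count of 1 was 3 without control replicate 2 and without double_null replicate 2, and 2 without double_null replicate 1. The median was −1.50 without control replicate 2 and −1.12 without pRb_null replicate 2.

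Other genes of the fork, from a list of 33 of which 26 were measured by 41 probe sets, had counts near the background in pRb_null. Against control 3 of the 41 had higher scores there and 1 lower by an unadjusted p under 0.05 (7.32% and 2.44%). The shares of all probe sets were 6.44% and 4.21%. The median difference of the list was 0.41, against 0.07 over all probe sets. In p53_null 3 were higher and 2 lower (7.32% and 4.88%, median −0.12), against 7.38% and 7.23% of all probe sets. In double_null 2 were higher and 7 lower (4.88% and 17.1%, median −0.15), against 8.77% and 9.91%. Rfc1, the large subunit of the clamp loader, scored 1.32 and 1.12 in pRb_null, 0.64 and 0.41 in p53_null, −0.58 and −0.64 in double_null and −1.36 and −0.91 in control by probe set 1451920_a_at. Its difference from control was 2.35 ± 0.19 in pRb_null (limma adjusted p = 0.146). Rpa1, which coats single-stranded DNA, scored −0.14 and 0.55 in pRb_null, −0.10 and −0.32 in p53_null, 1.44 and 1.11 in double_null and −1.17 and −1.37 in control by 1423293_at, with control lowest and double_null highest. Pold3, an accessory subunit of polymerase delta, differed from control by 1.98 ± 0.42 in p53_null (adjusted p = 0.197).

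The genes of the MCM helicase and origin licensing, which act before the fork forms, had a median difference of 0.79 in pRb_null, 0.37 in p53_null and 0.42 in double_null against control over 35 probe sets of 16 genes. In pRb_null 3 of the 35 were higher and 2 lower by an unadjusted p under 0.05 (8.57% and 5.71%). These counts were near the shares of all probe sets, 6.44% and 4.21%. The 3 were of the helicase subunits Mcm6 1416251_at (1.97 ± 0.27), Mcm5 1415945_at (2.09 ± 0.51) and Mcm3 1426653_at (2.28 ± 0.65), with limma adjusted p from 0.207 to 0.393. Among the lower was Orc3 1416117_at (−1.64 ± 0.40, adjusted p = 0.337). The nucleotide synthesis genes had medians of 0.12, 0.42 and 0.03 in the same order, over 24 probe sets of 11 genes. Rrm1, the large subunit of ribonucleotide reductase, scored 1.04 and 0.51 in pRb_null, 0.65 and 0.64 in p53_null, 0.35 and −0.13 in double_null and −1.34 and −1.70 in control by 1448127_at, again with control lowest. In double_null 3 of the nucleotide synthesis probe sets were higher and 3 lower at that bound (12.5% each), against 8.77% and 9.91% of all probe sets. The lower included Cad 1452830_s_at (−2.34 ± 0.36, limma adjusted p = 0.0954) and Ctps 1416563_at (−2.44 ± 0.39, adjusted p = 0.0965). DNA polymerases of repair, damage bypass and mitochondria had medians of 0.05 in pRb_null, −0.55 in p53_null and 0.09 in double_null over 22 probe sets of 12 genes. The mitosis list of 25 probe sets had median differences of 0.53 in pRb_null, 0.67 in p53_null and −0.65 in double_null against control. In double_null 2 of them were higher and 7 lower at that bound (8% and 28%), against 8.77% and 9.91% of all probe sets. The proliferation marker Mki67 scored −1.46 and −1.55 in double_null, against 0.29 and 0.98 in control, by 1426817_at, whereas Pcna scored higher in double_null than in control. The Mki67 difference was −2.14 ± 0.25 (limma adjusted p = 0.0655).

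The members did not vary as 1 block over the arrays. Across 114 pairs of probe sets of different members the median r over the 8 arrays was 0.05, with 53 pairs negative and a range from −0.866 (Rfc4 1438161_s_at and Fen1 1436454_x_at) to 0.784 (Pcna and Prim1 1418369_at). Over the 6 genes with a pair of probe sets the median r within a gene was 0.336, and over 12855 such pairs of the whole table it was 0.216, with 4448 negative. These values describe 8 arrays whose scores were standardized together. The probe sets most like the mean score of the members were those of Cavin1 and Pmpca (r = 0.979 each), Mxi1 (0.968), Itga4 (0.967) and Rlim (0.964). Those most like Pcna were Bid (0.989), Tgm2 (0.981), Cab39l (0.976), Lgals9 (0.974) and Pcx (0.974), the last by an array control probe set. Of 20377 probe sets searched, 73 had an r over 0.9 with Pcna and 43 with the mean of the members.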

How the data were processed

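The authors deposited 1 table of scores, in which every one of the 22690 rows was found to be standardized (mean 0, SD 1, tolerance 1e-06). The submitters' processing notes list RMA without a version, and neither the standardization nor a logarithm before it is described in the sources used here. Gene symbols came from the platform annotation, in which 20393 probe sets had 1 symbol, 691 several and 1606 none. The arrays were grouped by their titles. A linear model over the 8 arrays was run in limma 3.58.1 (R 4.3.3), with a mean for each genotype, which leaves 4 residual degrees of freedom, two-sided. The test without moderation was used because a standardized row has no scale of its own. The members, lists and tests were chosen with earlier results of these data known, including that moderation called 0 genes. A difference is given for every member probe set and comparison at an unadjusted p under 0.05. Examples from other lists were picked from the probe sets with the smallest p, at most 4 per list and comparison, and not all of these are named. Genes alike in pattern were the 5 with the highest r. The alternatives were the moderated statistic, quantile normalization, array medians or array control medians at 0, the replicate block, 1 mean per gene, single-symbol probe sets, only the groups compared, and leaving out each array. The number of arrays limits the precision. Promoter sequences are RefSeq's on GRCm38.p6. Python 3.11.15 with pandas 2.3.3 searched the promoters, and matplotlib 3.10.9 drew the plots. The p53 gene itself is not reported here.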

Additional observations from a re-analysis of the deposited data

Results flagged for a closer look

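Rfc3 by probe set 1423700_at had an interaction of pRb loss and p53 loss of −3.00 ± 0.54 (limma unadjusted p = 0.0052, adjusted p = 0.308), which did not pass after adjustment. Its pRb difference was −1.16 with p53 absent (double_null minus p53_null) and 1.83 with p53 present (pRb_null minus control). Both double_null arrays lay below both p53_null arrays, and both pRb_null arrays above both control arrays. It was singled out because its interaction had an unadjusted p under 0.05. Of the 16 member probe sets it was the only 1, against 10.5% of all probe sets, of which 0 passed adjustment. The other Rfc3 probe set, 1432538_a_at, had differences of −0.24 and 1.26 in the same order.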

How the results depend on the processing

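Of 22 member differences with an unadjusted p under 0.05, the direction held in all 172 fits under the other settings and in all 176 with 1 array left out. The 22 were selected on these same data. Settings that alter only the spread, or drop an array of a group not compared, cannot change a difference. The held direction therefore says little about robustness. Under the other settings the unadjusted limma p stayed under 0.05 in 137 of the 172 fits, and 0 passed adjustment, with a lowest adjusted p of 0.0815. Leaving out 1 array, the difference of p53_null from control ran from 0.95 to 1.70 for Pcna and from −1.68 to −0.90 for Pole. That of double_null from control ran from 0.79 to 1.73 for Rfc3 1423700_at. Member probe sets called were 0 in each comparison under every setting run. With moderation over all probe sets 0 were called in each comparison, against 2251 to 4927 probe sets at an unadjusted p under 0.05. Counts of members at that bound moved as follows, out of 16 probe sets, or out of 10 genes with 1 mean per gene. For double_null against control the count was 3 with only the groups compared, and for double_null against pRb_null it was 1. For double_null against p53_null it was 1 with moderation, the replicate block or the array control scaling. With 1 mean per gene it was 4 of the 10 genes, and no share over all genes was computed there. Over all probe sets 2700 reached that bound in this comparison by the ordinary limma statistic and 2958 with moderation. For the interaction the count of members was 2 with moderation, quantile normalization, array medians at 0 or 1 mean per gene. The replicate numbers in the titles showed no pairing common to all genotypes. The r of the deviations of same-numbered arrays ran from −0.163 (pRb_null and double_null) to 0.197 (p53_null and double_null). Only the last exceeded the threshold of 0.1. With the replicate block, 4 members had an unadjusted p under 0.05 in pRb_null, 3 in p53_null and 4 in double_null against control, and 0 were called after adjustment. Under the array control scaling, chosen after seeing the data, the count for pRb_null against control was 1, and the medians were 0.12 there, −0.30 for p53_null and −0.34 for double_null against control, −0.031 for the averaged pRb effect and 0.10 for the interaction (the median over all probe sets moved alike). With 1 array left out, the lone array of its group was assumed to vary like the others. Counts then ran from 2 to 5 (pRb_null against control), 2 to 4 (p53_null against control), 3 to 6 (double_null against control), 1 to 5 (double_null against pRb_null), 0 to 3 (double_null against p53_null), 2 to 6 (averaged pRb effect) and 1 to 3 (interaction), and medians, in the same order, from 0.76 to 1.31, 0.13 to 0.67, −0.24 to 1.00, −0.81 to −0.23, −0.23 to 0.25, 0.23 to 0.64 and −1.50 to −0.74. A filter on dim probe sets and another background correction could not be run on scores without a level.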
